A study of Mus musculus with 14 samples.

Results

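The transcripts of 8 genes that encode adipokines, hormones released by fat cells, or the proteins that bind them were followed in the ovary and uterus of aged mice. The genes were chosen by symbol, 4 ligands (Adipoq, Lep, Retn and Cfd) and 4 receptors or binding proteins (Adipor1, Adipor2, Cdh13 and Lepr), and each matched 1 of the 21853 genes measured. None was chosen on a measured value, although earlier results on these libraries were known. The libraries came from 7 female C57BL/6J mice aged 28 weeks, 3 in the old control (OC) group and 4 in the old treatment (OT) group, with an ovary and a uterus library under every mouse code (14 libraries). Libraries with the same code were taken to come from the same mouse. OT mice received AMSC-CM, the medium conditioned by mesenchymal stem cells of the human amniotic membrane, through the tail vein, at 1 µL per g of body weight in 6 injections given 4 days apart, and OC mice received saline. All mice of both groups had first been given PMSG and then hCG, 10 IU of each and 48 h apart. The medium was a concentrate pooled from 3 donors.

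Adiponectin, the product of Adipoq, circulates as large multimers and is known to raise insulin sensitivity. It acts through the receptors ADIPOR1 and ADIPOR2, which are linked to AMPK and PPARα, and its larger multimers bind T-cadherin, the product of Cdh13. Leptin, the product of Lep, reports the energy stored in fat to the brain through its receptor LEPR and the kinase JAK2, and mice without leptin are infertile. Resistin (Retn) is made mainly by fat cells in the mouse, and adipsin (Cfd) is complement factor D, the protease that starts the alternative complement pathway. In the mouse, gonadal white fat lies against the ovary and uterus.

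Positions were taken from the GENCODE annotation of the mouse build GRCm38 (mm10), release M21, in which all 8 genes were protein-coding. The ligand genes were Adipoq (ENSMUSG00000022878.5, chr16:23146536-23158028, plus strand), Lep (ENSMUSG00000059201.12, chr6:29060220-29073877, plus strand), Retn (ENSMUSG00000012705.16, chr8:3655770-3660110, plus strand) and Cfd (ENSMUSG00000061780.6, chr10:79890853-79892655, plus strand). The receptor genes were Adipor1 (ENSMUSG00000026457.14, chr1:134415378-134433351, plus strand), Adipor2 (ENSMUSG00000030168.13, chr6:119353150-119417704, minus strand), Cdh13 (ENSMUSG00000031841.19, chr8:118283733-119324921, plus strand) and Lepr (ENSMUSG00000057722.17, chr4:101717404-101815352, plus strand).

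The 250 bases before the start site of each ligand gene are shown because the 4 ligand transcripts moved together across the libraries. They were read from RefSeq promoters on GRCm38.p6, 5′ to 3′ on the plus strand, at chr16:23146286-23146535 for Adipoq, chr6:29059971-29060220 for Lep, chr8:3655520-3655769 for Retn and chr10:79890603-79890852 for Cfd. Capitals mark a match to 1 of 6 motifs searched on both strands.
Adipoq: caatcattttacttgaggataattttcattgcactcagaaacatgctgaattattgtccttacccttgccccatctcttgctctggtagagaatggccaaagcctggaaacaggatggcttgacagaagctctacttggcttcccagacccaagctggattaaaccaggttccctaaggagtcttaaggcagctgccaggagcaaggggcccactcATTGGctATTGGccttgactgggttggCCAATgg
Lep: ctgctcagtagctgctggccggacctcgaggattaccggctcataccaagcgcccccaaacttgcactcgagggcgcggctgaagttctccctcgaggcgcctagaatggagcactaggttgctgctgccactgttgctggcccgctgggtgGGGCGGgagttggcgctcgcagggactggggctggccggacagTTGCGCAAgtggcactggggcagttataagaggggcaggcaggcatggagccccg
Retn: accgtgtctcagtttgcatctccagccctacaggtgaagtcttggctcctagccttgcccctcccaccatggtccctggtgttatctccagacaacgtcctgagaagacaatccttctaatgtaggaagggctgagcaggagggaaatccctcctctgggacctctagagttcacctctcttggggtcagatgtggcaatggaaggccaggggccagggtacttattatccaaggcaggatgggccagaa
Cfd: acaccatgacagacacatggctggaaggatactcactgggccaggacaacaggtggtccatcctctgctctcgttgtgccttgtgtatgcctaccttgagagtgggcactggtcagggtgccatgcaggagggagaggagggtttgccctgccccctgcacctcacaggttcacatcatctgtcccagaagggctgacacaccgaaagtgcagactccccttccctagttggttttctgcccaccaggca

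The motifs were TATAAA (the TATA box), CCAAT (the CCAAT box), TTGCNNAA (a C/EBP-like site), AGGTCA (a nuclear receptor site), CACGTG (an E-box) and GGGCGG (a GC box), where N is any base. The Adipoq window held CCAAT 3 times, at 34 to 30, 27 to 23 and 7 to 3 bases before the start, and this motif was present in 33.8% of the 32851 promoters of the table. The Lep window held TTGCGCAA at 55 to 48 bases before the start and a GC box at 98 to 93 bases. A C/EBP-like site was present in 9.56% of all promoters and a GC box in 32.7%. None of the 6 motifs matched in the Retn or Cfd window, and the TATA box, the nuclear receptor site and the E-box, present in 12.4%, 14% and 6.02% of all promoters, matched in none of the 4. Lep had the highest share of G and C among the ligands at 65.6%, against 57.6% for Cfd, 54.8% for Retn, 48.8% for Adipoq and a median of 52.4% over all promoters. Of the receptor genes, Adipor1, Adipor2 and Lepr had entries, with 5 start sites between them. Adipor1 held 2 GC boxes before each of its start sites and a CCAAT box before the first, Lepr held a CCAAT box before 1 start site and a GC box before the other, and Adipor2 held none of the motifs. Cdh13 had no entry. These matches are letters in a window and were not tested as binding sites.

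Expression was given in FPKM, the fragments of a transcript scaled by its length and by the number of fragments mapped in the library, so levels of different genes could be set side by side. Total FPKM was 374816 to 397644 in the ovary libraries and 425875 to 471907 in 6 of the uterus libraries. The OT1 uterus stood apart at 577494. It held the brown fat gene Ucp1 at 209.9 FPKM, against 0.112 FPKM in the OT3 uterus and 0 in the other libraries, and Cox8b at 339.7 FPKM against 1.70 to 7.26 FPKM in the other uteruses. Log2 fold changes of the 8 genes and counts of the fat cell and related lists in the uterus are therefore given with and without OT1. Ovary libraries carried their defining markers, with Cyp11a1 at 2456 to 3148 FPKM. Zp3 and Fshr were at 0 in every uterus, but other ovarian markers were present there at low levels. Foxl2 was at 1.10 to 10.9 FPKM and Cyp11a1 at 0.665 to 3.31 FPKM in the uteruses. The list of 10 ovarian markers summed to 19.8 to 23.2 FPKM in OC uteruses and 7.85 to 18.9 FPKM in OT uteruses, against 3474 to 4541 FPKM in OC ovaries. The ovary libraries also held the uterine gene Hoxa10 at 0.572 to 53.4 FPKM.

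In OC mice Adipor2, Adipor1 and Cfd were the most abundant of the 8 transcripts and Lep the least. In OC ovaries Adipor2 averaged 66.6 ± 2.13 FPKM (SD, n = 3) and Cfd 63.3 FPKM, with overlapping ranges, followed by Adipor1 at 49.0 ± 1.05 FPKM (SD, n = 3). Below them came Adipoq at 21.5 FPKM, Retn at 11.6 FPKM and Lepr at 10.95 FPKM, and the ranges of Adipoq and Retn and of Retn and Lepr overlapped. Cdh13 at 2.83 FPKM and Lep at 1.87 FPKM were the lowest and did not overlap with each other.

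The order in OC uteruses was Cfd (65.9 FPKM), Adipor2 (57.5 FPKM), Adipor1 (51.9 FPKM), Adipoq (21.3 FPKM), Lepr (13.3 FPKM), Retn (13.2 FPKM), Cdh13 (7.35 FPKM) and Lep (1.77 FPKM). Neighbours in this order overlapped except Adipor1 with Adipoq and Cdh13 with Lep. In OT uteruses the first 3 places were taken by ligands, Cfd at a mean of 1783 FPKM, Adipoq at 320 FPKM and Retn at 239 FPKM, and their ranges overlapped. Lep, at 23.5 FPKM, then had a higher mean than its receptor Lepr at 9.65 FPKM, with overlapping ranges.

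**Figure D1:**
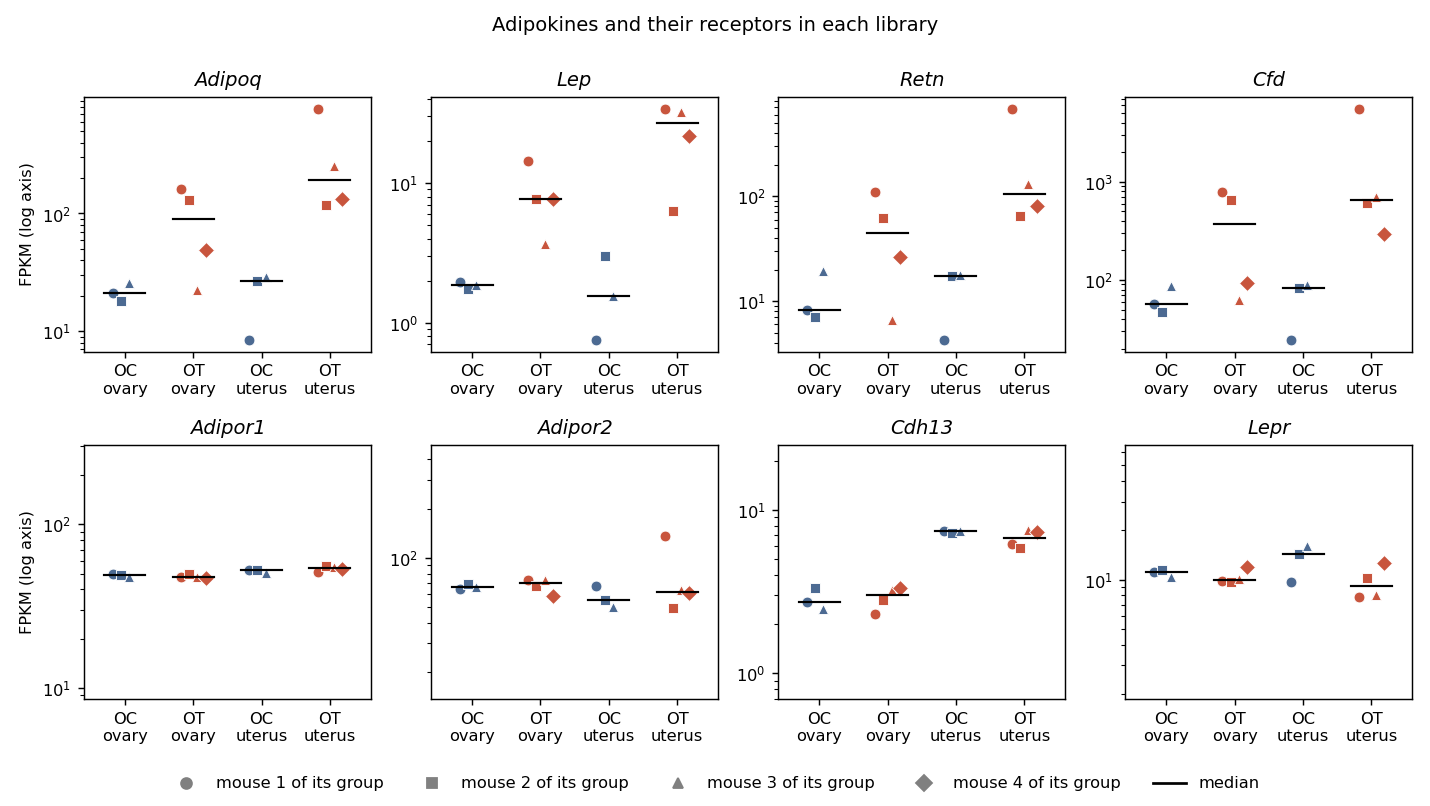
FPKM of each gene in each library on a log axis, with OC in blue and OT in red, 1 marker shape per mouse number and a bar at the group median. The top row holds the ligands, which reached 5531 FPKM for Cfd in the OT1 uterus, and the bottom row the receptors, where Adipor1 stayed between 47.1 and 55.6 FPKM in all 14 libraries.

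In the uterus, all 4 ligand transcripts were higher in every OT library than in every OC library, and none of the 4 receptor transcripts met the cutoffs. The cutoffs followed the study (a change of 2-fold or more and p, before adjustment, no higher than 0.05), with fold and p here from limma on log2(FPKM + 0.1). At these cutoffs 4 of the 8 genes were called higher and 0 lower in OT uteruses, against 2.23% of 14151 tested genes called higher and 0.664% called lower. No gene of the whole table had an adjusted p under 0.05 in the uterus by limma (the lowest was 0.266), with 1160 genes at an unadjusted p under 0.05. In a single fit of all 14 libraries with the mouse as a random block, 46 genes passed in the uterus, among them Lep (adjusted p = 0.0304 by limma), and Adipoq was at 0.0571, Cfd at 0.104 and Retn at 0.11. All 8 genes passed the filter of a mean of 0.5 FPKM in both tissues.

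Adipoq, which encodes adiponectin, was at 8.40, 26.8 and 28.6 FPKM in the OC1, OC2 and OC3 uteruses and at 777, 117, 251 and 133 FPKM in the OT1, OT2, OT3 and OT4 uteruses. The lowest OT uterus thus lay above the highest OC uterus. The log2 fold change was 3.65 ± 0.70 (SE), with a 95% interval of 2.04 to 5.26, an unadjusted p of 0.000791 and an adjusted p of 0.357 by limma. In a bulk library, more fat cells and more RNA per fat cell cannot be told apart.

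Lep, which encodes leptin, was at 0.752, 3.02 and 1.55 FPKM in the 3 OC uteruses and at 34.0, 6.29, 32.2 and 21.6 FPKM in the OT uteruses. OT2 was the lowest of the treated uteruses and was still above OC2, the highest control. Its log2 fold change of 3.6 ± 0.65 (SE) had an interval of 2.11 to 5.08 and an adjusted p of 0.357 by limma.

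Retn was at 4.26, 17.4 and 17.9 FPKM in OC uteruses and at 681, 65.4, 130 and 80.0 FPKM in OT uteruses. Cfd, the most abundant ligand transcript in every library, was at 24.5, 83.6 and 89.5 FPKM in OC uteruses and at 5531, 608, 700 and 295 FPKM in OT uteruses. For both genes the OT1 uterus was far above the other 3 treated uteruses and the groups did not overlap. Retn had a log2 fold change of 3.72 ± 0.85 (SE) with an interval of 1.77 to 5.68 (limma, adjusted p = 0.396). Cfd changed by 4.0 ± 0.94 (SE), with an interval of 1.83 to 6.18 (limma, adjusted p = 0.427), and was the third most abundant transcript of the OT1 uterus library.

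Without the OT1 uterus the log2 fold changes were 3.07 for Adipoq, 3.33 for Lep, 2.99 for Retn and 3.14 for Cfd, and without the OC1 uterus, which had the lowest value of each ligand, they were 3.08, 3.12, 3.05 and 3.40. The 4 genes were still called in both cases. Every OT library above every OC library was found for these 4 members in the uterus, against 6.46% of all tested genes. The exact two-sided permutation test over the libraries gave p = 0.0571 for each of the 4, the smallest p that 3 against 4 libraries allow, and 0.183 after Benjamini-Hochberg adjustment over 16 tests (8 genes in 2 tissues).

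In the ovary the ligand transcripts were also higher on average in OT mice, but OT3 differed from the other treated ovaries. At the same cutoffs 2 of the 8 genes, Adipoq and Lep, were called higher and 0 lower, against 0.368% of 14415 tested genes called higher and 0.0832% called lower. No gene of the table had an adjusted p under 0.05 in the ovary by limma (the lowest was 0.477), with 650 genes at an unadjusted p under 0.05. Lep was the only member with every OT ovary above every OC ovary, a pattern found in 2.78% of all tested genes.

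The 3 OC ovaries had Lep at 1.97, 1.76 and 1.88 FPKM, and the OT ovaries had it at 14.4, 7.66, 3.68 and 7.72 FPKM. The controls lay close together and OT3 was the treated ovary nearest to them. The log2 fold change was 1.95 ± 0.38 (SE), with an interval of 1.09 to 2.81, an unadjusted p of 0.000692 and an adjusted p of 0.997 by limma. The exact permutation p was 0.0571.

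Adipoq was at 21.1, 17.9 and 25.6 FPKM in OC ovaries and at 160, 130, 22.5 and 49.2 FPKM in OT ovaries. OT3 lay within the range of the controls, so the groups overlapped. The log2 fold change was 1.70 ± 0.60 (SE), with an interval of 0.32 to 3.07, an unadjusted p of 0.0213 and an adjusted p of 0.997 by limma. Without the OC1, OC2 or OT2 ovary it was 1.69, 1.57 or 1.40 and was no longer called, with limma p before adjustment of 0.0501, 0.0617 and 0.055 (no gene had an adjusted p under 0.994 in these fits).

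Retn was at 8.24, 7.06 and 19.5 FPKM in OC ovaries and at 110, 62.6, 6.55 and 26.6 FPKM in OT ovaries. OT3 was here below all 3 controls. Its log2 fold change of 1.66 ± 0.85 (SE) had an interval of -0.28 to 3.6 and was not called (limma, adjusted p = 0.997). Cfd was at 56.6, 47.2 and 86.2 FPKM in OC ovaries and at 791, 653, 62.8 and 94.2 FPKM in OT ovaries. OT1 and OT2 were several times above the controls, OT4 was just above OC3, and OT3 was within the control range. The log2 fold change of Cfd was 1.94 ± 0.87 (SE), with an interval of -0.04 to 3.92, and was not called (limma, adjusted p = 0.997). Without the OT3 ovary all 4 ligands were called higher, with log2 fold changes of 2.24 for Adipoq, 2.29 for Lep, 2.43 for Retn and 2.57 for Cfd, and without OT4 Cfd was called at 2.38. Without the OT1 ovary Retn was at 1.08 and Cfd at 1.36, and neither was called.

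**Figure D2:**
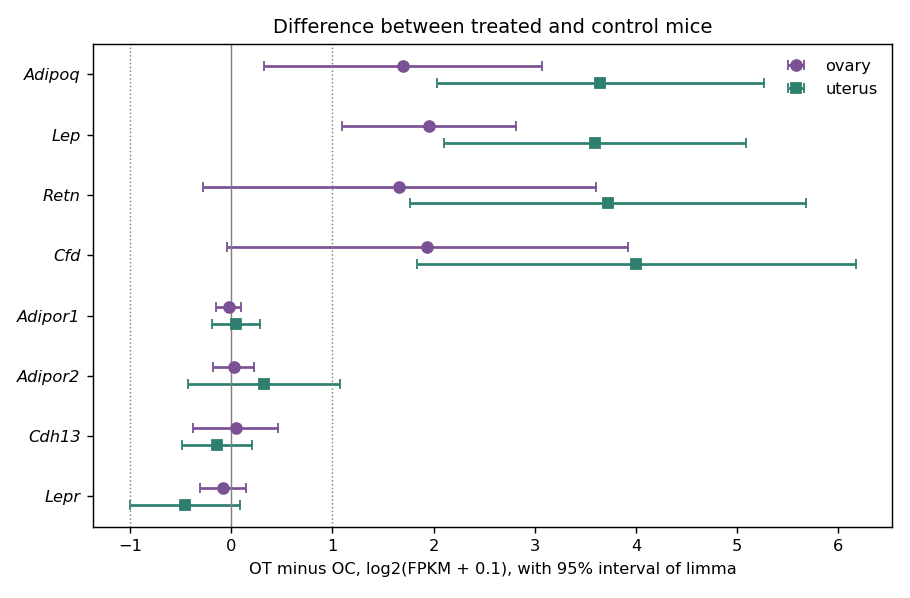
Log2 fold change (OT minus OC) of each gene on log2(FPKM + 0.1) in the ovary (circles) and uterus (squares), with the 95% interval of limma and dotted lines at the cutoffs of -1 and 1. The uterus intervals of the 4 ligands lie above 1, their ovary intervals reach down to between -0.28 and 1.09, and all receptor intervals include 0.

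Summed over the 4 ligands, these transcripts made up 0.00852% to 0.0340% of all FPKM in the 6 OC libraries. In OT mice the share was 0.287%, 0.214%, 0.0245% and 0.0458% in the OT1, OT2, OT3 and OT4 ovaries and 1.22%, 0.169%, 0.239% and 0.124% in their uteruses. Thus only the OT3 ovary was inside the range of the controls. Cfd alone was 63.9% to 65.1% of the ligand sum in the 6 OC libraries. Its range in the OT libraries was wider, from 53.0% (OT4 ovary) to 78.8% (OT1 uterus). Relative to Adipoq, Cfd was 2.64 to 3.36 times as high in the OC libraries of both tissues, 1.91 to 5.02 times in OT ovaries and 2.22 to 7.12 times in OT uteruses, and the groups overlapped (exact permutation p = 0.457 in the ovary and 0.571 in the uterus).

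The receptor transcripts did not meet the cutoffs in either tissue. Adipor1 was at 49.8, 49.3 and 47.8 FPKM in OC ovaries and at 47.5, 49.9, 47.7 and 47.1 FPKM in OT ovaries. In the uterus it was at 52.7, 52.3 and 50.7 FPKM in OC and at 51.4, 55.6, 55.1 and 53.2 FPKM in OT mice. The groups overlapped in both tissues, and the log2 fold change was -0.03 (interval -0.15 to 0.10) in the ovary and 0.05 (interval -0.19 to 0.29) in the uterus, and 0.07 there without OT1. Changes of 2-fold in either direction lie outside both intervals.

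Adipor2, the receptor linked to PPARα, was at 64.8, 69.0 and 66.1 FPKM in OC ovaries and at 73.5, 67.1, 73.4 and 58.4 FPKM in OT ovaries. In the uterus it was at 66.9, 55.4 and 50.3 FPKM in OC and at 137, 49.3, 63.2 and 61.0 FPKM in OT mice. The OT1 uterus alone stood above the others, and the other 3 treated uteruses were within or just below the control range. The log2 fold change was 0.03 (interval -0.18 to 0.23) in the ovary. For the uterus it was 0.32 (interval -0.43 to 1.07), and 0.01 without OT1. The ratio of Adipor2 to Adipor1 was 1.30 to 1.40 in OC ovaries, 1.24 to 1.54 in OT ovaries, 0.993 to 1.27 in OC uteruses and 0.887 to 1.15 in the OT uteruses other than OT1, where it was 2.66.

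Cdh13 was at 2.72, 3.31 and 2.47 FPKM in OC ovaries and at 2.32, 2.82, 3.25 and 3.33 FPKM in OT ovaries. The uterus held more, 7.43, 7.19 and 7.42 FPKM in OC and 6.16, 5.86, 7.51 and 7.30 FPKM in OT mice. The treatment groups overlapped in each tissue, with log2 fold changes of 0.04 (interval -0.38 to 0.46) in the ovary and -0.14 (interval -0.48 to 0.21) in the uterus, and -0.10 there without OT1.

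Lepr, the leptin receptor, was at 11.1, 11.4 and 10.3 FPKM in OC ovaries and at 9.85, 9.64, 10.1 and 11.9 FPKM in OT ovaries. In the uterus it was at 9.68, 14.4 and 15.9 FPKM in OC and at 7.79, 10.2, 8.03 and 12.5 FPKM in OT mice. Values overlapped between the groups in both tissues. The log2 fold change was -0.08 (interval -0.31 to 0.14) in the ovary and -0.46 (interval -1.0 to 0.09, limma adjusted p = 0.623) in the uterus, and -0.37 there without OT1. Without OC1 or OT4 the uterus value was -0.67 or -0.59 (limma p before adjustment 0.0227 and 0.0365, adjusted 0.697 and 0.379). Without OC3 it was -0.32. None of these reached the 2-fold cutoff. FPKM were given per gene, so the long, signalling form of the receptor and its short forms were not told apart.

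Ratios of receptor to ligand transcripts were taken within each library. In OC ovaries there were 5.49 to 6.50 units of Lepr per unit of Lep in FPKM, and in OT ovaries 0.685 to 2.75. In OC uteruses the ratio was 4.78 to 12.9 and in OT uteruses 0.229 to 1.63. The groups did not overlap in either tissue (exact permutation p = 0.0571, 0.2 after Benjamini-Hochberg adjustment over 14 ratio tests). The ratio of Adipoq to Adipor1 was 0.159 to 0.565 in OC uteruses and 2.11 to 15.1 in OT uteruses (exact permutation p = 0.0571, adjusted 0.2). In the ovary it was 0.363 to 0.536 in OC and 0.471 to 3.37 in OT mice, which overlapped (exact permutation p = 0.114, adjusted 0.32). These are ratios of RNA and not of the proteins.

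Of the 8 genes Cdh13 alone was called between uterus and ovary in control mice, at a higher level in the uterus. The test was limma on the difference between the uterus and ovary of each mouse, and 1 of the 8 passed at an adjusted p under 0.05, against 34.5% of 14557 tested genes. Cdh13 in the uterus was 2.73, 2.17 and 3.00 times its level in the ovary of the same mouse in OC1, OC2 and OC3 (log2 difference 1.35 ± 0.17 SE, interval 0.98 to 1.73, limma adjusted p = 0.000465). It was 2.08 to 2.66 times higher in the uterus in OT mice, so all 7 mice had the same direction. Adipor1 was also slightly higher in the uterus in every mouse, by 1.06 times in OC mice and 1.08 to 1.16 times in OT mice, a log2 difference of 0.08 (interval -0.12 to 0.29) that was not called. The ligands had no common direction among OC mice, with uterus to ovary ratios of 0.398 to 1.5 for Adipoq, 0.382 to 1.72 for Lep, 0.518 to 2.47 for Retn and 0.433 to 1.77 for Cfd.

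Among OT mice the ligands were higher in the uterus than in the ovary of OT1, OT3 and OT4. For Adipoq the ratios of mice OT1 to OT4 were 4.86, 0.903, 11.2 and 2.70. OT3, whose ovary was like the controls, had a uterus well above them and therefore the highest ratio. For Retn the OT ratios were 1.05 to 19.8, for Cfd 0.931 to 11.2 and for Lep 0.821 to 8.75.

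The difference in response between the tissues was tested within mice, as the OT minus OC difference of uterus minus ovary, with the same cutoffs. It was called for 3 of the 8 genes, against 2.42% of 14557 tested genes. These were Adipoq, with a log2 difference of 1.95 (interval 0.17 to 3.74), Retn, with 2.07 (interval 0.01 to 4.13), and Cfd, with 2.06 (interval 0.23 to 3.90). Lep had 1.64 (interval -0.05 to 3.34) and was not called. The adjusted p was 0.807 for all 4 by limma, no gene had an adjusted p under 0.05 (829 had an unadjusted p under 0.05), and no member was called without mouse OC1, OC3, OT1 or OT3. Retn was at the edge of the cutoff, and its p before adjustment was 0.05 to 0.0639 (limma, adjusted p of 0.8 to 0.827) with a pseudocount of 0.01, without a filter, with a filter of 2 FPKM, with upper-quartile scaling and with robust eBayes, so that it was not called there.

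**Figure D3:**
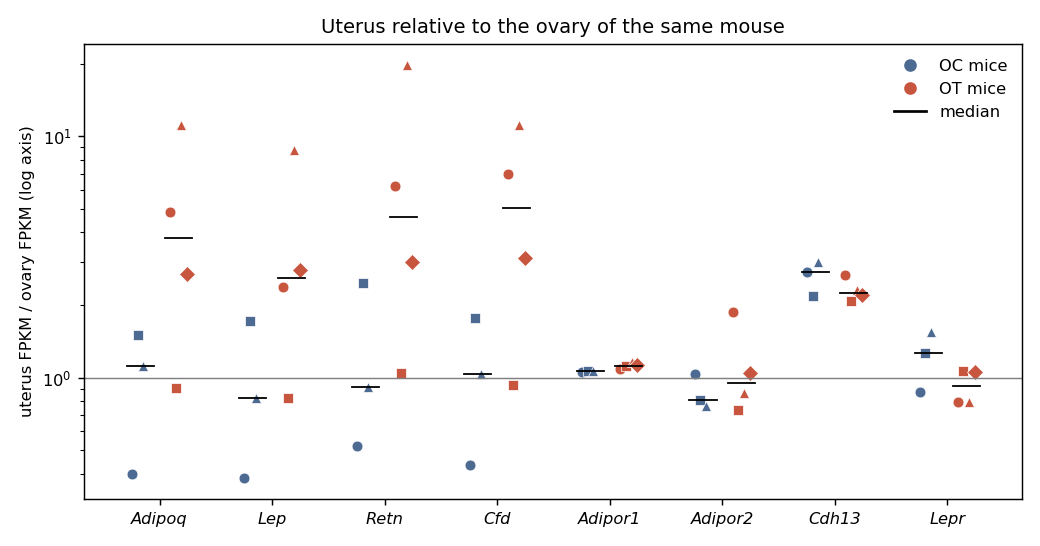
Ratio of the uterus FPKM to the ovary FPKM of the same mouse on a log axis, with OC mice in blue, OT mice in red, a different marker shape for each mouse number within its group, a bar at the group median and a line at 1. Cdh13 lies between 2.08 and 3.00 in all 7 mice, and the ligands range from 0.382 to 2.47 in OC mice and from 0.821 to 19.8 in OT mice.

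Other transcripts of fat cells were high in the same libraries as the ligands. A list of 20 fat cell genes without the members summed to 294 to 364 FPKM in OC ovaries, 337 to 1303 FPKM in OT ovaries, 213 to 344 FPKM in OC uteruses and 884 to 7270 FPKM in OT uteruses. Of the 20, 19 were called higher and 0 lower in the uterus, against 2.23% and 0.664% of all tested genes. The median log2 fold change there was 3.04, against 0.01 over all tested genes. In the ovary 9 were called higher and 0 lower (median 1.15), against 0.368% and 0.0832% of all tested genes (median -0.01). Without the OT1 uterus 17 of 20 were called higher (median 2.33), against 1.72% of all tested genes. Without the OT3 ovary it was 13 of 20 (median 1.55), against 0.722%. Among them were Fabp4, a fatty acid carrier (3.98 in the uterus and 1.62 in the ovary), Cidec, a lipid droplet protein (4.19 and 1.65), and Plin1, which coats the droplet (4.27, and 1.15 in the ovary, where it was not called). Of this list 13 genes, and all 4 ligands, are among the genes the study itself listed as changed in both tissues, so they are not independent evidence of direction. The part of the amount of fat tissue in the ligand result was not tested.

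Within a library, the ligands were set against the mean of these 20 genes on the log2 scale. On average every ligand was higher relative to this mean in OT than in OC mice. Ovary differences were 0.64 (Adipoq), 0.90 (Lep), 0.60 (Retn) and 0.88 (Cfd). Uterus differences, in the same order, were 0.77, 0.71, 0.84 and 1.12. The mean itself rose by 2.88 in uteruses, but some of its genes, named for their large change, rose by more. These were Plin1 (4.27), Cidec (4.19), Adrb3 (4.04) and Fabp4 (3.98), each above Adipoq, Lep and Retn, whereas Cd36 (2.28) was under the mean. In ovaries the mean rose by 1.05, Adrb3 by 2.03, Cidec by 1.65, Fabp4 by 1.62, Cd36 by 1.31 and Plin1 by 1.15. An excess over the mean was thus not particular to the ligands. The differences from the mean also depended on single libraries. In the uterus Adipoq was 0.46 and Retn 0.43 without OC1, and Lep was 0.41 without OT4, 0.47 without OT3 and 1.09 without OT1. In the ovary Retn was 0.34 without OT1, 0.35 without OC2, 0.98 without OC3 and 1.04 without OT3, and Cfd was 0.53 without OT2. Lep in the ovary lay between -2.18 and -1.89 in OC and between -1.54 and -0.79 in OT libraries, without overlap (exact permutation p = 0.0571, 0.152 after adjustment over 8 tests). The groups were likewise apart for Adipoq and Retn in the uterus, with the same exact permutation p of 0.0571, and overlapped in the other 5 cases. The OT3 ovary, with its fat cell mean of 3.06 between the controls' 2.93 and 3.16, had a relative Lep level of -1.14, above all 3 controls.

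**Figure D4:**
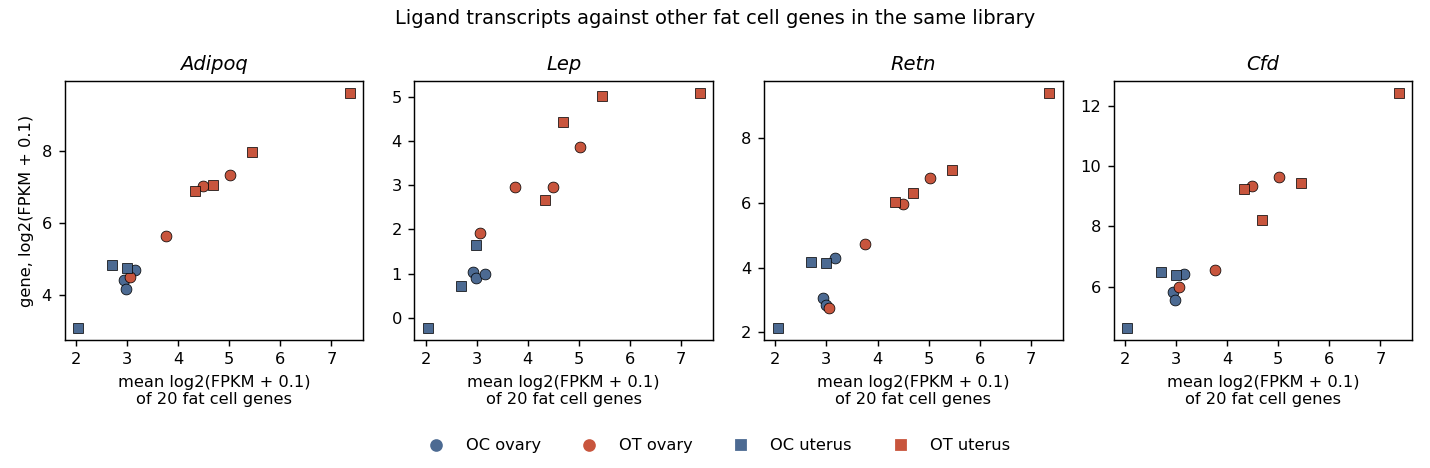
Log2(FPKM + 0.1) of each ligand against the mean log2(FPKM + 0.1) of 20 other fat cell genes in the same library, with OC in blue, OT in red, ovaries as circles and uteruses as squares. Libraries with a higher fat cell mean had higher ligand levels, and the OT1 uterus, with a mean of 7.36, is the point at the upper right of each panel.

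Some markers of other cell types also differed between OT and OC mice. For comparison, 2.23% of all tested genes were called higher and 0.664% lower in the uterus, and 0.368% and 0.0832% in the ovary. The brown fat list summed to 722 FPKM in the OT1 uterus and 21 to 49.5 FPKM in the other uteruses, and 1 of its 8 tested genes was called higher (Ppargc1b) and 1 lower (Dio2) in the uterus. A list of stratified epithelium and urothelium genes summed to 2.60 to 12.9 FPKM in OC uteruses and 49.0 to 765 FPKM in OT uteruses, with 5 of 10 called higher, among them the keratins Krt5 (log2 fold change 6.22) and Krt13 (5.30). In the ovary 1 gene of that list was tested and 0 were called. Of the macrophage genes 1 of 8 was called higher in the uterus (Cd163, 1.39) and 0 of 8 in the ovary. In the ovary 3 of the 8 were above the controls in every OT library, against 2.78% of all tested genes. Lyz2 (0.61) and Csf1r (0.58) were among them without reaching the cutoffs. None of 8 endothelial or 8 smooth muscle genes was called in either tissue, with medians of -0.31 and 0.48 in the uterus. There 4 of the 8 smooth muscle genes, Tagln (0.48) among them, were above the controls in every OT library, against 6.46% of all tested genes. In the uterus 7 of 8 smooth muscle genes and 1 of 8 endothelial genes had a positive change. The uterine markers had a median of -0.46 in uteruses, with 2 of 10 positive. Hoxa10 (-0.46) and Esr1 (-0.35) did not reach the cutoffs, while Hoxa13 (1.89) was called higher. None of the 8 uterine markers tested in the ovary was called. Of the ovarian markers 1 of 5 tested (Cyp11a1, -1.18) was called lower in the uterus and 0 of 10 in the ovary. Without the OT1 uterus 5 of 7 tested genes of the stratified list were called higher, against 1.72% of all tested genes. Of the brown fat list 0 were then called higher, and Cyp11a1 was no longer called. Counts called higher without OT1 were 1 of 8 for the macrophage list and 1 of 10 for the uterine list. They were 0 for the endothelial and smooth muscle lists. The part of these differences in the ligand result was not tested.

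Other secreted products of fat cells were also among the genes called higher. Of a list of adipokines outside the members, 6 of 15 tested were called higher in the uterus (median 0.33) and 2 of 14 in the ovary (median 0.11), and 0 were lower, against 2.23% and 0.368% of all tested genes called higher. Without the OT1 uterus 4 of 14 were called higher, and without the OT3 ovary 3 of 14. Those with the largest changes in the uterus were Orm1, an acute-phase protein (3.92), Igfals, which binds IGF complexes (3.00), Agt, angiotensinogen (2.91), and Rbp4, the retinol carrier (2.85). In the ovary Igfals (1.65) and Rbp4 (1.52) were called. The abundant Sparc (0.32 in the uterus and -0.05 in the ovary) and Rarres2, which encodes chemerin (0.33 and 0.10), were not called. Among resistin-like genes Retnla was called in both tissues, at 2.89 in the uterus and 1.23 in the ovary, and Retnlg in neither. Without the OT1 uterus 1 of the 2 tested resistin-like genes was called higher there, with a median of 1.48 against 2.1 with it.

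Paralogs of the ligands and receptors were tested in the same fits, and their counts and medians are set against those over all tested genes (ovary 0.368% called higher, median -0.01, and uterus 2.23%, median 0.01). Of the C1q/TNF-related genes, paralogs of Adipoq, 0 of 9 tested in the ovary (median 0.12) and 0 of 10 in the uterus (median 0.33) were called. Of the other PAQR genes, the family of Adipor1 and Adipor2, 0 of 9 were called in the ovary (median 0.11) and 2 of 9 in the uterus (median 0.59), Paqr9 (2.5) and Mmd (1.51), both higher. Without OT1 2 of 8 tested were called, with a median of 0.24. Adipokine receptors outside the members, such as Aplnr and Cap1, were called in 0 of 7 cases in both tissues (medians -0.07 and -0.02).

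Genes that assemble adiponectin or act with the adipokines and their receptors were called in 1 case. Of 6 genes for the folding and assembly of adiponectin, 0 were called in either tissue. Hspa5, an endoplasmic reticulum chaperone, had a log2 fold change of -0.38 in the ovary (limma, adjusted p = 0.997) and -0.15 in the uterus. Of 17 genes of adiponectin signalling, which include the AMPK subunits, 0 were called in either tissue, with median log2 fold changes of -0.00007 (ovary) and -0.05 (uterus). Of 14 genes of leptin signalling, with medians of -0.01 and -0.07, 1 was called, higher in the ovary, against 0.368% of all tested genes there. It was Socs3, which encodes an inhibitor of leptin and cytokine signalling. Socs3 averaged 9.41 ± 1.59 FPKM (SD, n = 3) in OC and 19.4 ± 4.09 FPKM (SD, n = 4) in OT ovaries, with a log2 fold change of 1.02 ± 0.19 (SE), an unadjusted p of 0.000542 and an adjusted p of 0.997 by limma. All OT ovaries were above all OC ovaries for Socs3, a pattern found in 2.78% of all tested genes. In the uterus its log2 fold change was 0.22 and the groups overlapped. Of 9 partners of adipsin in the alternative complement pathway, 0 were called in either tissue (medians 0.05 and 0.57). Their central component C3 had a log2 fold change of 0.36 (ovary) and 0.63 (uterus), with overlapping groups. The uterus counts of these pathway lists, the C1q/TNF-related genes and the other receptors were also 0 without OT1.

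**Figure D5:**
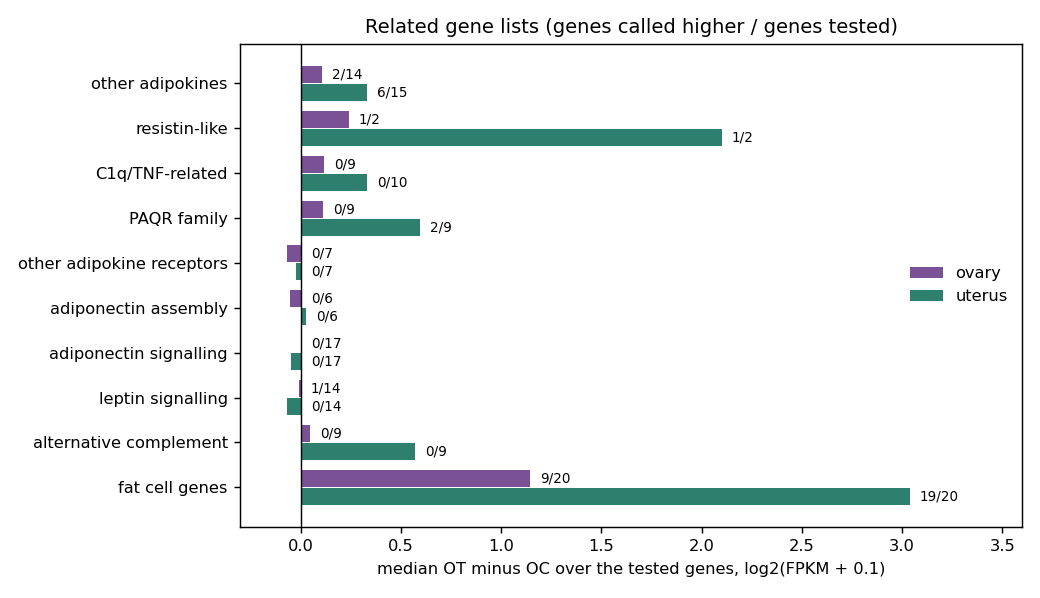
Median log2 fold change (OT minus OC) over the tested genes of each adipokine list and the fat cell list in the ovary (purple) and uterus (green), with the number called higher over the number tested at the end of each bar. Of the lists plotted, the fat cell list has the highest medians, 1.15 (ovary) and 3.04 (uterus), and the lists of adiponectin and leptin signalling have medians between -0.07 and 0.

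Across the 14 libraries, with the mean of each tissue subtracted from log2(FPKM + 0.1), the ligands followed one another with Pearson's r of 0.857 to 0.985, and these libraries share mice, treatment groups and the OT1 uterus. Among 13652 genes with enough expression in both tissues, Adipoq was most like Car3 (r = 0.998), Cidec (0.993) and Fabp4 (0.992). Lep was most like Lpl (0.965), Cdsn (0.964) and Sucnr1 (0.956), Retn like Car3, Igfals and Adipoq (0.985 to 0.987), and Cfd like B3galt2 (0.988), Trf (0.980) and Adipoq (0.979).

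The receptors had other neighbours. Adipor2 was most like Pdhx (0.969), Hsd17b12 (0.961) and the ceramidase gene Acer2 (0.960), Lepr like Bex1 (0.935), Mbtd1 and Fam214a, Adipor1 like Inpp5j (0.870), Armcx3 and Tlr5, and Cdh13 like Nedd4l (0.869), Rnf144b and Hoxd11. With Adipoq the correlation was 0.117 for Adipor1, 0.510 for Adipor2, -0.449 for Cdh13 and -0.559 for Lepr. These are descriptions over libraries that are not independent, and no test was made on them.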

How the data were processed

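Both tissues of 3 OC and 4 OT mice (14 libraries) were analysed, grouped by their labels. The deposited table held FPKM. The authors obtained it from stranded, rRNA-depleted total RNA by trimming with Skewer 0.2.2, mapping to mm10 with STAR 2.5 and estimation with Cufflinks 2.2.1. They are fractional estimates, so depth is unknown and Cuffdiff, which needs reads, was not run. All 21853 identifiers were given symbols from GENCODE M21.

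Genes averaging 0.5 FPKM or more were fitted per tissue with limma 3.58.1 (trended eBayes, R 4.3.3) on log2(FPKM + 0.1), without further scaling, and adjusted by Benjamini-Hochberg over all tested genes. A fold change on this scale understates the change of low genes. Differences between tissues were fitted within mice, with the group as a term, on the assumption that a shared code is the same mouse. In the single fit of all libraries, the consensus correlation of the 2 tissues of a mouse was 0.0689. Exact two-sided permutation p was 2 times the smaller tail of 35 assignments. Other steps used Python 3.11.15, pandas 2.3.3, numpy 2.4.6, scipy 1.17.1 and matplotlib 3.10.9. The fits were first tested on simulated data. Promoters came from a RefSeq table.

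The genes, lists and tests were chosen with earlier results of these data known. Genes outside the members were named as the 4 with the largest change among those called and the 2 most abundant of each list, and the 3 most correlated with each member, of which the text gives a part. Other pseudocounts, filters and scalings, robust eBayes, a replicate block, a joint fit and leaving out each replicate were tried. Counts per list without the OT1 uterus or the OT3 ovary were added after seeing the data.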

Additional observations from a re-analysis of the deposited data

Results flagged for a closer look

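In the OT uteruses, 4 quantities had 1 library far from the other 3 by Dixon's criterion, and each time it was OT1. These were Retn at 681.3 FPKM, Cfd at 5531 FPKM, Adipor2 at 136.7 FPKM and the ratio of Adipor2 to Adipor1 at 2.661. In all, 38 groups of 4 libraries were checked, and chance alone marks about 1 group in 20.

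The response of 3 ligands differed between uterus and ovary of the same mice at the cutoffs used. The log2 difference was 1.951 for Adipoq, 2.066 for Retn and 2.065 for Cfd, larger in the uterus, and each had an adjusted p of 0.807 by limma.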

How the results depend on the processing

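The uterus count of 4 ligands called higher and the single call between tissues (Cdh13) were unchanged under every alternative run. The ovary count of 2 ranged from 1 to 4 when 1 library was left out (1 without OC1, OC2 or OT2, and 4 without OT3). The count of 3 for the difference in response ranged from 0 to 4 (0 without OC1, OC3, OT1 or OT3, and 4 without OC2 or OT2) was 2, without Retn, under 5 of the other settings, and was 0 in a single fit with the mouse as a random block. In the uterus, that fit left 46 genes below an adjusted p of 0.05 by limma, against 0, among them Lep (0.0304). It uses a common estimate of spread for the tissues, which differ in spread. Correlations of same-numbered OC and OT libraries were -0.0275 to 0.331, and those of differently numbered libraries were -0.382 to 0.253. The highest was between the OC1 and OT1 ovaries. With so few libraries, these values cannot settle whether the replicate numbers pair the samples. A replicate block, which drops OT4, kept the uterus count at 4 and gave 3 in the ovary, 0 for the difference in response and -0.0224 for Cdh13 in the ovary.

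Directions of uncalled values turned in leave-one-out fits, from -0.0482 to 0.155 for Cdh13 and from -0.0134 to 0.0972 for Adipor2 in the ovary, and for uterus minus ovary in OC mice from -0.58 to 0.37 (Adipoq), -0.77 to 0.24 (Lep), -0.58 to 0.44 (Cfd) and -0.53 to 0.58 (Retn). The cause of these turns was not tested. Over all 7 mice, in a fit without the term for group, uterus minus ovary was 0.92 for Adipoq, 0.68 for Lep, 1.07 for Cfd and 1.26 for Retn (adjusted p = 0.0779 by limma). This mean includes the 4 OT mice and so holds their difference in response too. It is not an estimate for OC mice. Over all genes, the ovary calls of 53 higher and 12 lower became 16 and 2 with a pseudocount of 1, 99 and 60 without a filter, 25 and 0 with a filter of 2 FPKM, and 36 to 104 and 10 to 33 when 1 library was left out. The uterus calls of 316 and 94 became 202 and 57 with a pseudocount of 1 and 243 to 416 and 52 to 189 when 1 library was left out. The 5023 calls between tissues became 2896 to 6492 in leave-one-out fits, and 7595 were called over all 7 mice. For the difference in response, 261 and 91 became 165 and 38 with a pseudocount of 1. Depth is unknown, so counting error could not be given. The exact permutation test cannot pass 0.05 with 3 against 4 libraries, so no calls were counted for it.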
